A study of Mus musculus with 2 samples.

Results

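The transcription factors described here are 10 genes chosen by name, *Prdm1*, *Zeb2*, *Zeb1*, *Runx3*, *Runx1*, *Bhlhe40*, *Gata3*, *Ikzf2*, *Ikzf3* and *Myc*, out of 14732 gene symbols with a value in 1 or both libraries. They take part in effector, terminal and tissue-resident differentiation of CD8+ T cells, and T-box, Id, AP-1 and IRF factors were not among them. The CD8+ T cells were taken from OT-I transgenic C57BL/6 mice aged 6 to 8 weeks (lymph nodes and spleen), which carry a transgenic T cell receptor for the ovalbumin peptide SIINFEKL. After 24 h of stimulation (peptide, 2.5 ng/mL; IL-2, 10 U/mL), the cells received either a retroviral vector with Eomes and human CD2 (Eomes-overexpressing OT-I cells) or the same vector without Eomes (control OT-I cells). Cells of both groups were sorted for human CD2 after 48 h and given the same peptide and IL-2 again for 3 days. The number of mice behind each culture and the promoter that drives the vector are not given in the sources used here. Each group is 1 library of cultured cells, so there is no replicate check, no SD and no test between the groups, and every difference below compares 2 libraries.

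An activated CD8+ T cell can become a short-lived terminal effector, a circulating memory cell or a cell that stays in the tissue, and the choice is set by factors that oppose each other. Blimp-1 (encoded by *Prdm1*) and Zeb2 drive terminal effector differentiation, while Zeb1 favors memory. Runx3 keeps the CD8 lineage and the cytotoxic program and, together with Blimp-1, supports residency. Myc drives growth and division after activation, and Bhlhe40 and Gata3 shape cytokine production and fitness, whereas Helios (*Ikzf2*) and Aiolos (*Ikzf3*) are zinc finger factors of the Ikaros family.

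Transcript levels are FPKM as deposited, that is, read numbers divided by transcript length and by library depth, so levels can be compared between genes. The study's methods call the same values RPKM. The steps between the lowest values, together with transcript lengths of the mm10 annotation, placed the depth at about 19600000 reads for control and 19400000 reads for Eomes-overexpressing cells. Reads behind each gene were approximated from these depths, and all intervals below are 95% intervals of counting error alone. Log2 ratios are Eomes-overexpressing over control. As a check of the labels, *Eomes* had an FPKM of 2.47 in the control library and 129.6 with Eomes. The 6 T cell markers *Cd3d*, *Cd3e*, *Cd3g*, *Cd247*, *Cd8a* and *Cd8b1* lay between 83.9 and 264.4 in control and between 80.9 and 196.4 in Eomes-overexpressing cells, all 6 lower in the latter, and their summed FPKM was 1062 and 801. *Ms4a1*, *Pax5*, *Lyz2*, *Csf1r*, *Adgre1* and *Ncr1*, which mark B cells, myeloid cells and NK cells, were listed in neither library. Of the other marker lists, the summed FPKM in control and Eomes-overexpressing cells was 2.87 and 1.62 for B cells, 1.40 and 1.28 for myeloid cells, 2.72 and 1.91 for dendritic cells, 0.61 and 0.31 for erythroid cells, and 13.91 and 11.76 for CD4 and regulatory T cells. Nearly all of the last sum was *Zbtb7b* (13.79 and 11.61), while *Cd4* was at 0.03 and 0.08 and *Foxp3* at 0.09 and 0.07. The summed FPKM of the NK cell list was 0.31 and 5.74, all of it *Klrb1c*, which encodes NK1.1. Their part in the differences below was not tested.

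The Runx genes are shown by sequence because, of the 3 paralog pairs with both genes among the 10 factors, *Runx3* and *Runx1* had the widest gap in level. *Runx3* (mm10 chr4:135120652-135177990, plus strand) was at an FPKM of 54.4 and 60.7 in control and Eomes-overexpressing cells, whereas *Runx1* (chr16:92601466-92826149, minus strand) was at 0.17 and 0.22. Both genes have a distal and a proximal transcription start, which lie 31900 bases apart in *Runx3* and 128745 bases apart in *Runx1*. The FPKM values are per gene and do not say which start was used. The sequences run from 250 to 91 bases before each start, 160 bases on the coding strand, from RefSeq on GRCm38.p6 (the mm10 assembly). Capitals mark the Runx core TGTGGT or its reverse complement ACCACA.

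*Runx3* distal, chr4:135120395-135120554, plus strand: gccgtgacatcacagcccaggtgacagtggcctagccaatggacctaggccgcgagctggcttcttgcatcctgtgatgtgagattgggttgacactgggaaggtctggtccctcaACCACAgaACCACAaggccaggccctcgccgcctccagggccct

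*Runx3* proximal, chr4:135152295-135152454, plus strand: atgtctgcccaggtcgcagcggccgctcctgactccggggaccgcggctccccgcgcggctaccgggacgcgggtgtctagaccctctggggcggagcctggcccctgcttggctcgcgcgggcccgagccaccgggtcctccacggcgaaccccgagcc

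*Runx1* distal, chr16:92826165-92826324, minus strand: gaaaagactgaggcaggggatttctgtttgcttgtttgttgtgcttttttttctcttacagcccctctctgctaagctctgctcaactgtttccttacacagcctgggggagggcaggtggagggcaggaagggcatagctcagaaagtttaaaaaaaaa

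*Runx1* proximal, chr16:92697420-92697579, minus strand: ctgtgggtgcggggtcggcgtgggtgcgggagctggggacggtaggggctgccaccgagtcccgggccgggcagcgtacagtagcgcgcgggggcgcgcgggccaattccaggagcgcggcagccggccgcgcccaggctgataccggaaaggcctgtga

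The distal window of *Runx3* held 2 Runx cores a short distance apart, and the other 3 windows held none. Of all 32851 windows of the same length and position, 9.26% held at least 1 core on either strand. The proximal windows of both genes were rich in GC, at 76.9% in *Runx3* and 75.6% in *Runx1*, with 21 CpG dinucleotides in each. The distal windows had 61.9% and 46.9% GC and 5 and 0 CpG dinucleotides, respectively. Over all windows the median was 51.25% GC and 3 CpG dinucleotides. Windows were taken for 5 of the 10 factors, *Gata3*, *Prdm1*, *Runx1*, *Runx3* and *Zeb2*, with 10 windows in all. Any window on chromosome 18, which holds *Zeb1*, was left out of these. *Bhlhe40*, *Myc*, *Ikzf2* and *Ikzf3* had no match in the promoter table. The T-box core GGTGTGA (reverse TCACACC), the element that T-box factors such as Eomes recognize, was in 0 of these 10 windows and in 2.20% of all windows. The element CACCTG (reverse CAGGTG), which Zeb factors recognize, was in 2 of the 10 windows, the distal ones of *Runx3* and *Runx1*, and in 11.5% of all windows. The E-box CACGTG of Myc and Bhlhe40 was in none of the 10 windows and in 3.14% of all windows. For AGATAA (reverse TTATCT), an element of Gata factors, these values were 0 of 10 and 6.94%. These are matches of letters in short windows and do not show binding or its absence.

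The 10 factors differed far more from each other than between the libraries. In control OT-I cells the levels ran from *Myc* (FPKM 186.3) through *Bhlhe40* (175.6), *Runx3* (54.4), *Ikzf3* (21.1), *Prdm1* (14.9), *Zeb1* (3.49), *Gata3* (3.28), *Ikzf2* (0.51) and *Zeb2* (0.33) to *Runx1* (0.17). The highest level was 1096 times the lowest in control and 734 times in Eomes-overexpressing cells. The order was the same in Eomes-overexpressing cells except that *Ikzf2* and *Zeb2* changed places. *Zeb1* and *Gata3* were neighbors whose counting intervals overlapped in control (3.16 to 3.85 and 2.85 to 3.76) but not in Eomes-overexpressing cells (4.20 to 5.003 and 2.32 to 3.15). Overlap in only 1 of the libraries does not measure a change between them. Counting intervals also leave out error from the transcript length assumed for each gene. The intervals of *Ikzf2* and *Zeb2* overlapped in both libraries, as did those of *Zeb2* and *Runx1*.

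**Figure D1:**
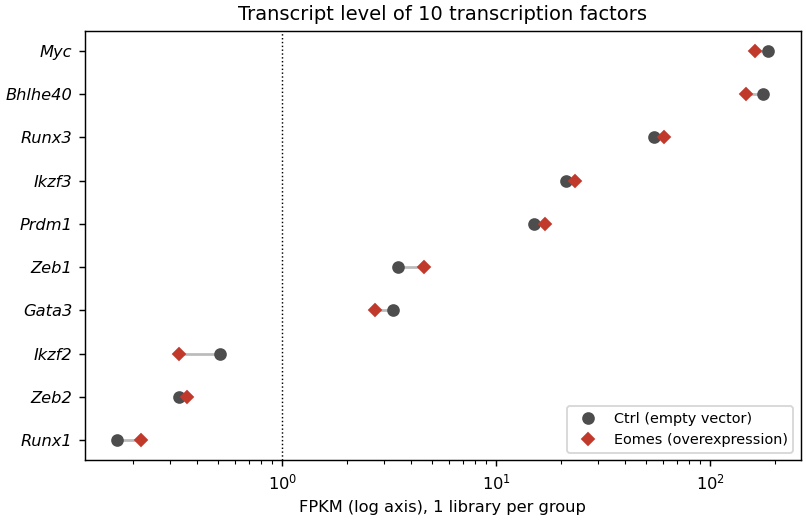
Transcript level of each of the 10 factors in FPKM on a log axis, with a circle for the control library and a diamond for the Eomes-overexpressing library, 1 library each. Both symbols of a gene lie close together while the genes span from 0.17 (*Runx1*) to 186.3 (*Myc*), and 3 genes lie left of the dotted line at an FPKM of 1.

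All 7 expressed factors of the Eomes-overexpressing library were within 1.5-fold of control. A gene was called expressed at an FPKM of at least 1 in at least 1 library, which *Myc*, *Bhlhe40*, *Runx3*, *Ikzf3*, *Prdm1*, *Zeb1* and *Gata3* were and *Ikzf2*, *Zeb2* and *Runx1* were not. Among 9925 expressed genes, 2.46% were higher by more than 1.5-fold and 5.19% lower by that much with Eomes overexpression, against 0 and 0 of the 7 factors. With so few factors and a background that low, 0 is a share near the background. Of the 7 expressed factors 4 had a higher and 3 a lower value in Eomes-overexpressing cells, with log2 ratios from -0.28 to 0.40. Over all 10 factors the median log2 ratio was 0.14 (0.07 after centring by GC content), beside -0.0037 over all expressed genes. In RNA from whole cultures, fewer cells with a transcript and less transcript per cell cannot be told apart.

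The spread of other genes at the same abundance was used to read the size of each difference. For each factor, the central 95% of the log2 ratios of the 500 genes nearest in mean FPKM was taken, and all 10 factors lay inside that range. Counting intervals were narrower than these ranges and left out 0 for 7 of the 10 factors. For 6 factors the whole counting interval lay within 1.5-fold (log2 ratio of 0.58 in either direction), and these were *Myc*, *Bhlhe40*, *Runx3*, *Ikzf3*, *Prdm1* and *Gata3*. The log2 ratio also fell with the GC content of the transcript across the expressed genes. The median was 0.25 for the tenth of genes lowest in GC (up to 42.1%) and -0.10 for the tenth highest in GC (58.3% and above). Values centred on the median of genes with similar GC content are therefore given for each factor and wherever centring moves an expressed gene across 1.5-fold. The centred log2 ratios of *Prdm1*, *Runx1*, *Gata3* and *Ikzf3* were 0.15, 0.29, -0.26 and 0.17.

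**Figure D2:**
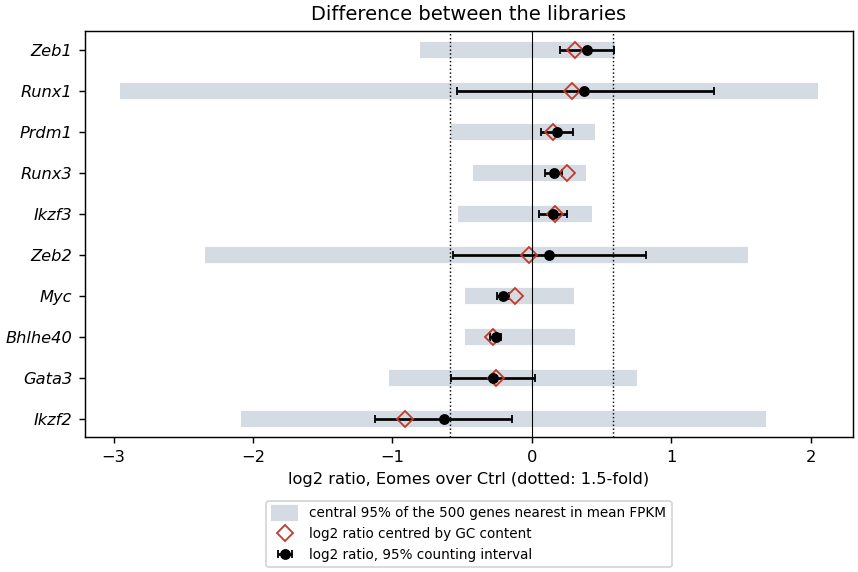
Log2 ratio of Eomes-overexpressing over control for each factor, with its 95% counting interval as a black bar, the GC-centred value as an open diamond and the central 95% of the 500 genes nearest in mean FPKM as a grey band, 1 library per group. All 10 black circles lie inside their grey bands, and only that of *Ikzf2* (-0.63) lies outside the dotted lines at 1.5-fold.

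*Prdm1* and the Zeb genes encode the factors of terminal effector and memory fates. *Prdm1* (chr10:44437177-44528501) had an FPKM of 14.9 in the control library and 17.0 with Eomes. Its log2 ratio was 0.18 (interval 0.07 to 0.30, about 1179 and 1324 reads), a value above that of 80.8% of the 500 genes of like abundance. *Bcl6*, whose product and Blimp-1 repress each other's genes, was listed at 0.01 in both libraries, about 1 read, and no ratio is given. *Zfp683*, which encodes the Blimp-1 homolog Hobit of resident cells, was not listed for either library.

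*Zeb1* was the expressed factor with the largest difference in either direction. Its FPKM was 3.49 in the control library and 4.59 with Eomes, from about 397 and 517 reads. The log2 ratio was 0.40 (interval 0.20 to 0.59), whose upper end reaches past 1.5-fold, and 0.31 after centring by GC content. Its paralog *Zeb2* (chr2:44983632-45117395) was at 0.33 and 0.36, from about 36 and 39 reads. The log2 ratio of *Zeb2* was 0.13 (interval -0.56 to 0.82) and, once centred by GC content, -0.02, so no direction can be read for it. *Zeb1* transcripts exceeded those of *Zeb2* by 10.6 times in control and by 12.75 times in Eomes-overexpressing cells. The ratio of *Zeb2* to *Zeb1* changed by -0.27 on the log2 scale (interval -0.95 to 0.41), which was not detectable as a change at this depth.

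*Runx3* was slightly higher with Eomes overexpression, with a log2 ratio of 0.16 (interval 0.10 to 0.22, about 4142 and 4577 reads). After centring by GC content, which is high in its transcript (55.9%), the log2 ratio was 0.25. *Runx1* was represented by about 20 and 25 reads, and its log2 ratio of 0.37 had an interval of -0.54 to 1.30. Rounding of the deposited values to 2 decimals alone lets that ratio run from 0.30 to 0.45. *Runx3* stood at 320 times *Runx1* in control and 276 times in Eomes-overexpressing cells, a change of -0.21 on the log2 scale with an interval of -1.07 to 0.64. *Runx2*, the other member of the family, was at 8.62 and 9.98. Thus *Runx3* held 86.1% of the summed FPKM of the 3 Runx genes in control and 85.6% in Eomes-overexpressing cells. *Cbfb*, which encodes the common partner of Runx proteins, was at 49.99 and 65.3, a log2 ratio of 0.39 (interval 0.32 to 0.46) and 0.21 after centring by GC content.

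*Myc* and *Bhlhe40*, both basic helix-loop-helix factors and the most abundant of the 10, had lower values in Eomes-overexpressing cells. *Myc* (chr15:61985391-61990374) was at an FPKM of 186.3 in the control library and 161.5 with Eomes. The log2 ratio of *Myc* was -0.21 (interval -0.25 to -0.16, about 8539 and 7327 reads) and -0.12 after centring by GC content. *Bhlhe40* (chr6:108660629-108666925) was at 175.6 and 146.8, a log2 ratio of -0.26 (interval -0.30 to -0.22, about 10717 and 8867 reads), and -0.28 after centring. Both were among the most abundant transcripts: 95.30% and 94.95% of the expressed genes had a lower FPKM than *Myc* and *Bhlhe40* in control. Of the 500 genes of like abundance, 13.2% had a lower log2 ratio than *Myc* and 8.2% a lower one than *Bhlhe40*. *Bhlhe41*, the paralog of *Bhlhe40*, was at 0.04 and 0.03, from about 4 reads or more.

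The other Myc genes differed from *Myc* in direction or size. *Mycn* was at 12.1 in the control library and 16.5 with Eomes, a log2 ratio of 0.44 (interval 0.29 to 0.59) and 0.55 after centring by GC content. *Mycl* was at 1.18 and 0.29, a log2 ratio of -2.02 (interval -2.82 to -1.30, about 81 and 20 reads). *Myc* made up 93.3% of the summed FPKM of the 3 genes in control and 90.6% in Eomes-overexpressing cells, and *Mycn* 6.08% and 9.24%.

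**Figure D3:**
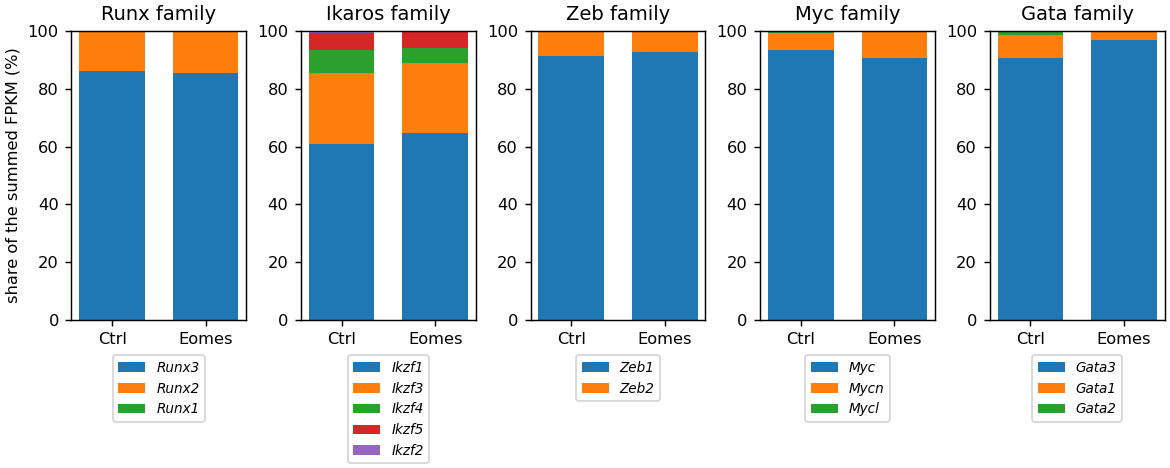
Share of each gene in the summed FPKM of its family, in percent, for control and Eomes-overexpressing cells with 1 library each. *Runx3*, *Zeb1*, *Myc* and *Gata3* hold over 85% of their families in both libraries, and *Ikzf1* holds 61.1% and 64.9% of the Ikaros family.

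The genes of Helios and Aiolos had log2 ratios of opposite sign. *Ikzf2* (chr1:69531214-69687245) was at an FPKM of 0.51 in the control library and 0.33 with Eomes, from about 93 and 59 reads. It was the only factor more than 1.5-fold apart, at 1.55-fold lower, but under the minimum FPKM of 1 in both libraries. The log2 ratio was -0.63 (interval -1.12 to -0.14) and -0.91 after centring, since its transcript has the lowest GC content of the 10 (40.1%). Among 2087 other low genes, listed in both libraries under an FPKM of 1 and with a mean of at least 0.1, 14.9% were higher by over 1.5-fold and 26.9% were lower by over 1.5-fold. With no minimum at all, these shares were 9.2% and 14.2% of 14732 symbols. A value such as that of *Ikzf2* is thus common at its abundance, and 22.8% of the 500 nearest genes had a lower log2 ratio.

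*Ikzf3* (chr11:98464902-98546031) was at 21.1 in the control library and 23.4 with Eomes, a log2 ratio of 0.15 (interval 0.05 to 0.25). *Ikzf3* exceeded *Ikzf2* by 41.4 times in control and 71.0 times in Eomes-overexpressing cells. The change in the ratio of *Ikzf2* to *Ikzf3* was -0.78 on the log2 scale (interval -1.26 to -0.30), and of the 3 pairs among the 10 factors this was the only one whose interval left out 0. That interval holds counting error alone. The change rests on the low values of *Ikzf2* and was -0.33 with 1 added to both FPKM values. *Ikzf1*, which encodes Ikaros, was the most abundant gene of the family at 52.8 and 63.5. *Ikzf4* (Eos) was at 6.90 and 5.18, a log2 ratio of -0.41.

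*Gata3* (chr2:9857078-9890034), the factor of type 2 T cells, was at an FPKM of 3.28 in the control library and 2.71 with Eomes. The log2 ratio was -0.28 (interval -0.58 to 0.02, about 207 and 169 reads), so a difference was not detectable at this depth. *Zfpm1*, which encodes the Gata cofactor Fog1, was at 40.4 and 53.6, a log2 ratio of 0.41. Genes annotated on the opposite strand overlap *Zeb2*, *Zeb1*, *Runx3*, *Runx1*, *Bhlhe40*, *Gata3* and *Ikzf2*. None of the genes overlapping the 10 factors was listed with a value of its own, and whether reads were counted by strand is not given in the sources used here.

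Some genes that work with the 10 factors, or that they are known to regulate, differed more than the factors themselves. All lists were chosen with earlier results of these data known, and together they hold more genes than the 10 factors. Wider extremes, and list counts above the share over all expressed genes, are therefore no test. The counts that follow use expressed genes and the same 1.5-fold threshold, beside which 2.46% of expressed genes were higher and 5.19% lower, and the medians are over genes listed in both libraries. Of 13 paralogs and partners, 9 were expressed, 0 were higher and 1, *Mycl*, was lower, with a median log2 ratio of 0.17. Of 9 genes of the MAX network, which compete with or resemble Myc, 8 were expressed and 1 was lower. This was *Mxd4*, an antagonist of Myc, at 7.40 in the control library and 3.87 with Eomes (log2 ratio -0.94, interval -1.14 to -0.73). The median of the network was -0.18.

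Growth genes that Myc is known to activate showed no difference past 1.5-fold. Of 30 such genes of ribosome biogenesis, metabolism and the cell cycle, all 30 were expressed, 23 had a higher and 7 a lower value, and the median log2 ratio was 0.09. They ran from *Ccnd2*, which encodes cyclin D2 (log2 ratio -0.27), to *Nop58*, a nucleolar protein gene (0.49). *Npm1*, which encodes nucleophosmin, was at 933.2 in the control library and 1193 with Eomes.

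Genes that Blimp-1 is known to repress were lower where they were expressed. Of 9 such genes 3 were expressed, and all 3 were more than 1.5-fold lower. *Ccr7*, a receptor for lymph node homing, was at 41.9 in the control library and 16.4 with Eomes, while *Id3* was at 4.4 and 1.83 and *Tcf7*, the gene of the stemness factor TCF1, at 2.12 and 0.65. These genes were known to differ from earlier results when the list was made. *Il2* and *Pax5* were listed in neither library, and the median over the 7 genes listed in both was -1.22. That median is the ratio of *Cxcr5*, at 0.14 and 0.06 (about 7 and 3 reads, interval -3.78 to 0.89). Besides the 3 expressed genes, all of the 7 were under the minimum FPKM of 1. For low genes with a mean of at least 0.1, 14.9% were higher and 26.9% lower by over 1.5-fold. The median is therefore not a measure of the whole list.

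Of 9 terminal effector genes, 7 were expressed, 3 were higher and 1 was lower. The higher ones were *Klrg1*, a receptor of terminal effector cells (0.45 in the control library and 1.56 with Eomes, about 12 and 43 reads), *Gzma* (490.4 and 1100) and *Id2* (56.3 and 123.6). *Tbx21*, which encodes T-bet, was lower, at 41.0 and 21.6, and the median of the list was 0.25. Of 10 residency genes 5 were expressed and 0 of these were past 1.5-fold, with *Cd69*, which retains cells in tissue, at 23.7 and 16.9. Over all 10 the median was -0.48, with 2 higher and 8 lower. Under the minimum FPKM of 1, *Itgae* was at 0.58 and 0.17, *Itga1* at 0.22 and 0.05 and *P2rx7* at 0.25 and 0.03. These values rest on about 44 and 13, 47 and 11, and 24 and 3 reads, respectively. *Cdh1* (0.29 and 0.21) and *Ahr* (0.45 and 0.32), also under that minimum, were within 1.5-fold. Among genes under that minimum in both libraries, with a mean of at least 0.1, 14.9% were higher and 26.9% lower by over 1.5-fold. The log2 ratio of *Cd69* was -0.49, and -0.72 and thus past 1.5-fold after centring by GC content. *S1pr1*, the receptor that guides cells out of tissue, was at 3.66 in the control library and 1.60 with Eomes.

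Type 2 genes linked to Gata3 were mostly lower, and *Gata3* itself was within 1.5-fold. Of 10 such genes, 6 were expressed and 5 of these were more than 1.5-fold lower, with a median log2 ratio of -0.72 (-0.84 after centring by GC content). *Il13*, a cytokine gene of type 2 responses, was at 10.3 in the control library and 0.59 with Eomes, a log2 ratio of -4.13 (interval -5.03 to -3.35, about 244 and 14 reads). *Ccr8* (log2 ratio -1.11), *Il1rl1*, the gene of the IL-33 receptor (-0.77), and *Ccr4* (-0.66) were also lower. *Il4ra*, the gene of the IL-4 receptor alpha chain, was at 42.5 and 27.1. Its log2 ratio of -0.65 was -0.56 and thus within 1.5-fold after centring by GC content.

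Of the 4 genes by which Runx factors separate the CD4 and CD8 lineages, 3 were expressed and 1 was lower. This was *Cd8a*, at 181.8 in the control library and 99.1 with Eomes. *Zbtb7b*, the gene of the CD4 lineage factor ThPOK, was at 13.8 and 11.6, whereas *Cd4* was at 0.03 and 0.08, and the median of the list was -0.36. Of 3 cytokine genes linked to Bhlhe40, all expressed, *Csf2*, which encodes GM-CSF, was lower, at 21.6 and 5.80 (log2 ratio -1.90, interval -2.25 to -1.56). *Il10*, which Bhlhe40 is known to repress, was at 10.4 and 7.14 and *Ifng* at 1343 and 1357, with a median of -0.55. The log2 ratio of *Il10* was -0.55, and -0.69 and thus past 1.5-fold after centring by GC content.

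**Figure D4:**
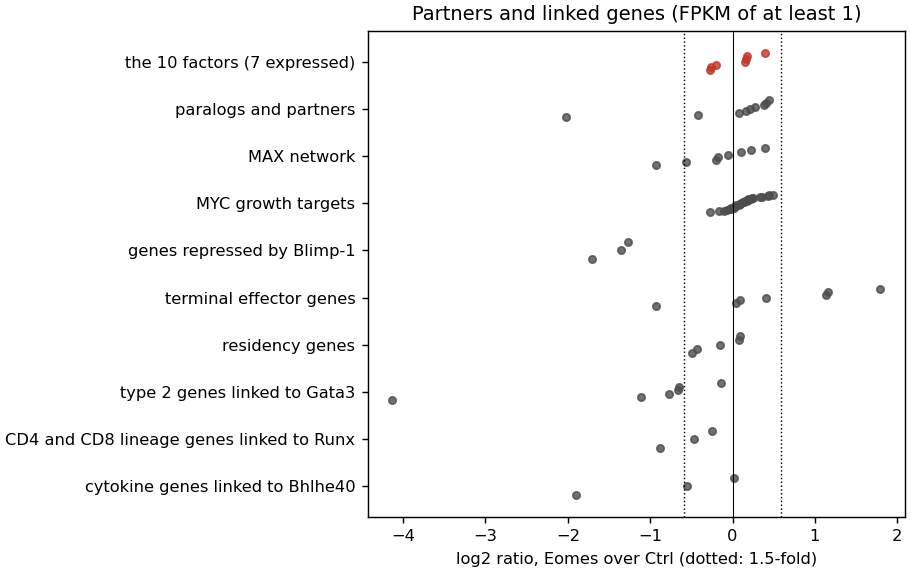
Log2 ratio of Eomes-overexpressing over control for the expressed factors (red, 7 genes) and for the expressed genes of each list counted above (grey), with 1 point per gene, 1 library per group and dotted lines at 1.5-fold. The red points lie between -0.28 and 0.40, whereas type 2 genes reach -4.13 (*Il13*) and terminal effector genes 1.79 (*Klrg1*).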

How the data were processed

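Total RNA of restimulated OT-I cells was sequenced as 1 library for control and 1 for Eomes-overexpressing cells. The authors filtered reads with SOAPnuke, and the submitters' processing notes name HISAT2, Bowtie2, RSEM and mm10, with no versions or annotation given in the sources used here. The authors deposited 1 FPKM value per gene symbol, printed to 2 decimals from 0.01 upward (14130 symbols in the control library and 13985 in the other), with no normalization between libraries stated.

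The members, gene lists and thresholds were chosen with earlier results of these data known. The 20 and 19 symbols that had been turned into dates were left out. Values not listed were set to 0.01, and log2 ratios were taken. Python 3.11.15 was used, with pandas 2.3.3, scipy 1.17.1, numpy 2.4.6 and matplotlib 3.10.9. With 1 library per group there was no test. The 1.5-fold threshold follows the study's methods.

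Depth was read from 148 and 158 genes with 1 annotated transcript of 500 to 2500 bases, as the depth at which FPKM times length came closest to whole reads below 6. At that depth 54.7% and 57.0% of these genes lay within 0.15 of a whole number. Evenly spread values give 30% at a depth fixed beforehand. Because the depth was picked as the closest one, these shares would exceed 30% in any case and are no test of it. The depth is approximate. Lengths and GC content came from the longest GENCODE vM21 transcript with a RefSeq mRNA (99.1% of expressed genes had a GC value). A shorter true transcript would mean fewer reads and wider intervals. Intervals of log2 ratios are Clopper-Pearson, those of levels exact Poisson, and those of paralog ratios come from the summed inverse read numbers. Family shares were added after seeing the data. Named genes were the 10 factors, the genes of each fixed list past 1.5-fold (at most 4 by size), and the paralogs and partners of the factors. List genes within 1.5-fold, such as *Cbfb*, *Npm1* or *Cd69*, were chosen after their values were seen, as were the residency genes under the minimum FPKM. Steps were tested on simulated data.

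Alternatives were 0.1 or 1 added to both values, no minimum FPKM or a minimum of 5, a 2-fold threshold, 3 other scalings and centring in 20 bins of GC content. Binding data were not used here. The counts of a list of egress genes are not reported here.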

Additional observations from a re-analysis of the deposited data

How the results depend on the processing

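The counts of factors past 1.5-fold were 0 higher and 0 lower with 0.1 or 1 added to both values, a minimum FPKM of 5, 3 other scalings, centring by GC content and a 2-fold threshold. All these settings keep a minimum FPKM of at least 1, which leaves *Ikzf2* out beforehand. A higher minimum or threshold also cannot raise a count of 0, so these counts are a weak check. With no minimum FPKM, 1 factor, *Ikzf2*, was more than 1.5-fold lower and 0 were higher, beside 14.2% of all 14732 symbols lower. The median log2 ratio of the factors lay between 0.05 (1 added) and 0.17 (summed FPKM) under the alternatives run. The 3 scalings shifted log2 ratios by at most 0.03. Of 60 values of single factors under the alternatives, 58 stayed inside their counting intervals. The others were *Runx3* (0.25) and *Myc* (-0.12) after centring by GC content, and *Zeb2* changed sign there (-0.02). The shifts of the 3 scalings are too small to move any factor out of its interval, so the count of 58 is also a weak check. With 1 added to both values, the log2 ratio of *Ikzf2* was -0.18, since its FPKM is under 1. The ratio of *Ikzf2* to *Ikzf3* changed by -0.33 to -1.08 across the alternatives.

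No paired analysis was possible because each group has 1 library, which also leaves no replicate to omit. Depth limits *Runx1*, *Zeb2* and *Bhlhe41*, which rest on few reads.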

Other observations

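Outside the 10 factors and their lists, 2 marker genes were higher in Eomes-overexpressing cells by a log2 ratio of 4 or more. *Klrb1c*, which encodes the NK receptor NK1.1, was at 0.31 FPKM in the control library and 5.74 FPKM with Eomes, a log2 ratio of 4.21 (interval 3.49 to 5.04, about 16 and 292 reads), while *Ncr1*, another NK cell gene, was listed in neither library. *Itgam*, a myeloid gene, was at 0.01 and 0.16 FPKM, a log2 ratio of 4.0 (interval 1.21 to 9.80) from about 1 and 15 reads. Both were singled out after their values were seen. *Cd79b*, a B cell receptor gene, was at 2.79 and 1.56, and *Xcr1*, a chemokine receptor gene of dendritic cells, at 1.79 and 1.11. Of the remaining markers, *Foxp3* was at 0.09 and 0.07 and *Cd14* at 1.39 and 1.12.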
